A study of Mus musculus with 11 samples.

Results

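The family of miR-15, miR-16, miR-322 and miR-503 was examined as the 5p arms of the hairpins miR-15a, miR-15b, miR-16, miR-195, miR-322, miR-497 and miR-503, a rule that uses names and no measured value. The rule found 7 of the 592 miRNAs in the table: miR-15a-5p, miR-15b-5p, miR-16-5p (mmu-miR-16-5p in the table, as for the others), miR-195a-5p, miR-322-5p, miR-497-5p and miR-503-5p. A mature miRNA guides an Argonaute protein to mRNAs that pair with its seed, bases 2 to 8, and lowers their output. In many cell types this family restrains the G1 to S transition by repressing cyclins D and E and the phosphatase Cdc25a, and it is known as a brake on proliferation. In mES cells, whose G1 phase is short, the miR-290 to miR-295 cluster is known to act on the opposite side of that transition.

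The libraries are of small RNA from mES cells of a male C57BL/6 background that lack, or still have, a functional gene for Trim71, an RNA-binding protein of the Tripartite motif family. Both genotypes derive from cells with floxed Trim71 alleles and a tamoxifen-dependent Cre recombinase driven from the ubiquitous Rosa26 locus. Trimfl/fl cells received the solvent, and in Trim-/- cells the floxed part was deleted with 4-hydroxytamoxifen (4-OHT), which the labels give as 500 nM for 2 days, with at least 7 further days of culture before harvest, while the study's methods give a lower dose and a shorter culture. The 2 lines were clone 1 and clone E3, each a single clone, and harvested cells were sorted magnetically for the stem cell antigen SSEA-1. Days 1, 5 and 6 each hold 1 Trim-/- and 1 Trimfl/fl library of clone 1, and days 3 and 4 hold 1 of each of clone E3. The sixth Trimfl/fl library, of clone E3 on day 2, has no partner.

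The values are normalised read counts that the authors corrected for batch, and their sequencing depth is unknown. For 591 of the 592 miRNAs the sum of the Trim-/- and the Trimfl/fl value was the same on every day to within 0.1%, so that the libraries of a day mirror each other, the SDs of the genotypes are equal, and each day gives 1 independent difference. Levels can therefore not be compared between days or clones, only the same-day differences. The day 2 value of each member was the mean of the remaining Trimfl/fl libraries, and that library was left out. Library sums ran from 3751519 to 5551715 in Trim-/- and from 2742673 to 4332525 in Trimfl/fl. The 27 miRNAs of the miR-290 to miR-295 and miR-302 to miR-367 clusters, which define mES cells, held 55.5% to 59.8% of every sum. The deletion of Trim71 was not checked here, since the table holds no mRNA. The labels do not say whether the libraries of a clone came from separate cultures, so that p-values measure the spread between these libraries only. In bulk samples, fewer cells that express a miRNA and less of it per cell cannot be told apart.

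The mature sequences show what joins the members and what separates them, with the seed in capitals (RefSeq, GRCm38.p6).

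miR-15a-5p: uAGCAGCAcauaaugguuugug

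miR-15b-5p: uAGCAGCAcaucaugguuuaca

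miR-16-5p: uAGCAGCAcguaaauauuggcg

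miR-195a-5p: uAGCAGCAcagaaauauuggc

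miR-497-5p: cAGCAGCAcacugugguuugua

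miR-322-5p: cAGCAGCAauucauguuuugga

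miR-503-5p: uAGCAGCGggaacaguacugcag

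All 7 members had a RefSeq sequence, miR-497-5p under the name miR-497a-5p. The seed AGCAGCA was shared by 6 of them, and no other row of the table carried it among the 10 RefSeq mature miRNAs that have it. miR-503-5p has the seed AGCAGCG and shares 6 of the 7 seed bases. Beyond the seed, miR-16-5p and miR-195a-5p are the most alike. They differ at 2 positions counted from the 5′ end, G10A and U11G, and miR-195a-5p is 1 base shorter. miR-15a-5p and miR-15b-5p differ at 4 positions, A12C, G20A, U21C and G22A. How reads were divided between such close sequences is not given in the sources used here.

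The members come from 4 loci. On chromosome 14, Mir15a (mature 5p arm at chr14:61632075-61632096, minus strand) and Mir16-1 (chr14:61631936-61631957) lie in introns of Dleu2, a long non-coding RNA gene. On chromosome 3, Mir15b (chr3:69009775-69009796, plus strand) and Mir16-2 (chr3:69009918-69009939) lie in introns of Smc4, which encodes a condensin subunit. Both miR-16 genes make the same 5p sequence, so that the value of miR-16-5p cannot be divided between them. Mir497 (chr11:70234730-70234751) and Mir195a (chr11:70235062-70235082) are neighbours on the plus strand of chromosome 11. Mir322 (chrX:53054306-53054327) and Mir503 (chrX:53054027-53054049) are neighbours on the minus strand of chromosome X, upstream of Mir351, Mir542 and the miR-450 genes.

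miR-16-5p was by far the most abundant member. Over the 10 paired libraries it averaged 5232 normalised read counts, followed by miR-15b-5p at 732, miR-195a-5p at 678, miR-503-5p at 381, miR-15a-5p at 317, miR-497-5p at 238 and miR-322-5p at 143.2. The mature sequences have 21 to 23 bases, so that these levels differ little in length. miR-16-5p was above miR-15b-5p in 10 of 10 libraries, and it supplied 59.0% to 70.8% of the members' summed value. The order was less firm below it. miR-15b-5p exceeded miR-195a-5p in 6 of 10 libraries and miR-503-5p exceeded miR-15a-5p in 6 of 10, so that either could be the higher of the pair. The 10 libraries are 5 mirrored pairs, and these counts are a description of them. miR-195a-5p stood above miR-503-5p in 9 libraries, miR-15a-5p above miR-497-5p in 8, and miR-497-5p above miR-322-5p in 9. No member had a value at the floor of 1 that the authors set, and the lowest was 31.7. The family is a small part of the miRNAs of these cells, at 0.0717% to 0.418% of a library's sum.

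The first comparison asked whether the members differ between genotypes on the same day. The direction depended on the day. miR-16-5p had 2344, 2669 and 3047 normalised read counts in the Trim-/- libraries of clone 1 on days 1, 5 and 6, and 8119, 7794 and 7416 in the Trimfl/fl libraries of the same days. In clone E3 it had 5289 in Trim-/- and 5174 in Trimfl/fl on day 3, and 7731 and 2732 on day 4. Thus miR-16-5p was lower in Trim-/- on all 3 days of clone 1, equal to within a few percent on day 3 and higher on day 4. In these mirrored values, lower on all 3 days is the same as clone 1 groups without overlap, and 24.2% of all miRNAs had this.

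**Figure D1:**
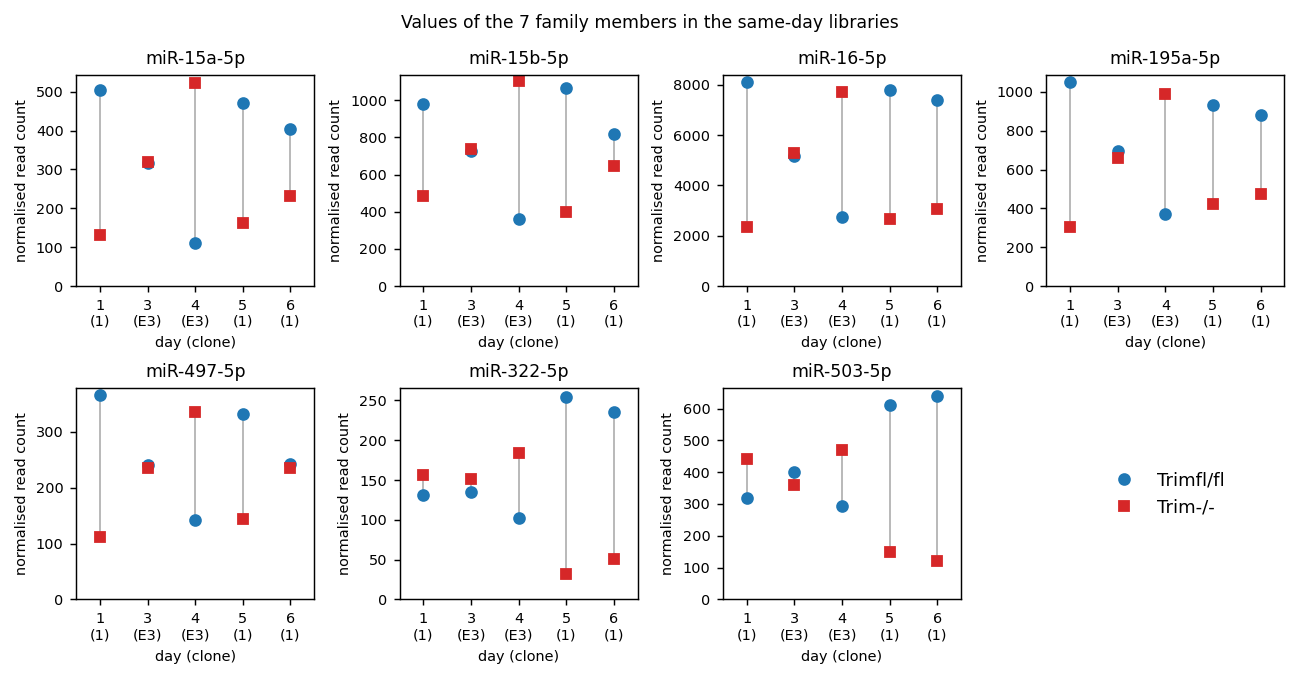
Normalised read counts (linear axis from 0) of the 7 members in the 10 paired libraries, by day, with the clone in brackets; each point is 1 library and a grey line joins the libraries of a day. For miR-16-5p the Trim-/- squares lie at 2344 to 3047 on the 3 clone 1 days and at 7731 on day 4, mirrored by the Trimfl/fl circles.

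miR-15a-5p, which is processed from the same primary transcript as miR-16 on chromosome 14, behaved alike. In clone 1 it had 130.4, 163 and 231 in Trim-/- against 503.2, 471 and 403 in Trimfl/fl on days 1, 5 and 6. In clone E3 the values were 318 against 316 on day 3 and 523 against 110.4 on day 4. Here too the clone 1 groups did not overlap, and day 4 was the only day on which Trim-/- was clearly higher.

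miR-15b-5p, the partner of miR-16 in Smc4, had smaller log2 differences within clone 1 than miR-16-5p. Its clone 1 values were 484, 399 and 645 in Trim-/- and 979, 1064 and 818 in Trimfl/fl on days 1, 5 and 6. On day 3 it had 735 against 729, and on day 4 1100.3 against 363. The clone 1 groups again did not overlap, with the narrowest gap on day 6.

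miR-195a-5p, from the chromosome 11 pair, had 305, 423 and 477 in Trim-/- and 1052, 933 and 879.7 in Trimfl/fl on days 1, 5 and 6, and in clone E3 659 against 697 on day 3 and 987 against 370.0 on day 4. Its partner miR-497-5p had 111, 144.5 and 235 in Trim-/- and 365, 332 and 242 in Trimfl/fl of clone 1, and 236 against 241 on day 3 and 335 against 141 on day 4. Both were lower in Trim-/- on all 3 clone 1 days without overlap, although for miR-497-5p the gap on day 6 was close to 0.

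The pair from chromosome X differed from the others on day 1. miR-322-5p, the mouse counterpart of human miR-424, had 156 in Trim-/- and 131 in Trimfl/fl on day 1, 31.7 and 255 on day 5, and 51.2 and 235 on day 6. In clone E3 it had 151 and 135 on day 3, and 185 and 102 on day 4. miR-503-5p had 443 and 318 on day 1, 149.8 and 611 on day 5, 122 and 639 on day 6, 359.9 and 401 on day 3, and 469 and 292 on day 4. Both were therefore lower in Trim-/- on days 5 and 6, with log2 differences further below 0 than those of any other member on these days, and miR-503-5p was slightly lower on day 3. Both were higher in Trim-/- on day 1, and the clone 1 groups overlapped.

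On the log2(value + 1) scale, the same-day differences of miR-16-5p, Trim-/- minus Trimfl/fl, were -1.79, -1.55 and -1.28 on days 1, 5 and 6 and 0.03 and 1.5002 on days 3 and 4. For miR-322-5p they were 0.25, -2.97 and -2.18 in clone 1 and 0.16 and 0.85 in clone E3. Past a 1.5-fold change, 5 of the 7 members were lower in Trim-/- on day 1 (27.9% of all 592 miRNAs), 7 on day 5 (28.5%) and 5 on day 6 (23.1%), and 7 were higher on day 4 (26.5%). On day 3 no member passed that change in either direction (33.8% of all miRNAs did), and the median absolute difference of the members was 0.03 against 0.40 over all miRNAs. On the other days the members differed more than the typical miRNA, with median absolute differences of 1.71 against 0.56 on day 1, 1.41 against 0.67 on day 4, 1.52 against 0.83 on day 5 and 0.88 against 0.52 on day 6. The sum of the 7 members was 2.89, 2.88 and 2.21 times higher in Trimfl/fl on days 1, 5 and 6, 1.01 times higher in Trim-/- on day 3 and 2.76 times higher in Trim-/- on day 4. As shares of each library's sum, these were 3.33, 5.83 and 2.56 times higher in Trimfl/fl on days 1, 5 and 6, 1.08 times higher in Trimfl/fl on day 3 and 3.18 times higher in Trim-/- on day 4. On that scale the median miRNA of day 5 lay at -1.002 and the median member at -2.54 on log2.

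**Figure D2:**
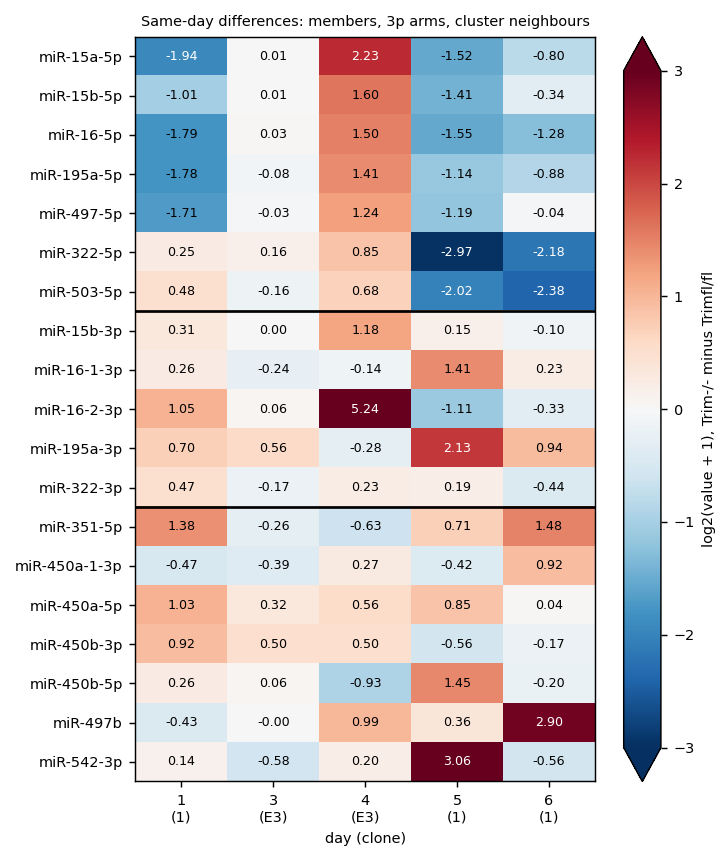
Same-day differences in log2(value + 1), Trim-/- minus Trimfl/fl, by day and clone (columns), for the 7 members, the 5 3p arms of the same hairpins and 7 cluster neighbours (blocks from top to bottom). Colours stop at an absolute difference of 3 and each cell prints its value, from -2.97 for miR-322-5p on day 5 to 5.24 for miR-16-2-3p on day 4.

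Over the 5 pairs together no member passed the study's thresholds, which ask for more than 1.5-fold and p under 0.05 before adjustment (limma with the day as a block). Over all miRNAs 4.56% were lower and 0.845% higher past these thresholds. The mean log2 difference of miR-16-5p was -0.62 ± 0.55 (SE, 5 pairs), with a 95% interval from -1.95 to 0.72 and an adjusted p of 0.667 (limma, Benjamini-Hochberg). SEs and intervals of log2 differences, here and below, are those of limma, which draws each miRNA's variance towards that of all miRNAs. The means of the other members ran from -0.78 ± 0.65 for miR-322-5p and -0.68 ± 0.56 for miR-503-5p to -0.23 ± 0.48 for miR-15b-5p. That of miR-322-5p was -0.23 without day 5 and -0.43 without day 6, and that of miR-503-5p -0.35 and -0.26, so that their place before miR-16-5p depended on these days. All 7 means were below 0 (48.8% of all miRNAs) and their median was -0.49, against 0.03 over all miRNAs, but the adjusted p-values ran from 0.652 to 0.846 in limma. With single days left out, the members' median ran from -1.02 without day 4 to -0.17 without day 1. The result over 5 pairs turned on day 4: without it miR-15a-5p, miR-16-5p and miR-195a-5p were lower past the thresholds, as were 7.43% of all miRNAs, miR-16-5p at -1.15 with an adjusted p of 0.385 (limma). No member had genotype groups that did not overlap over the 5 pairs, as 11.5% of all miRNAs did. In an exact two-sided permutation of the genotypes within days, the members' p-values lay between 0.375 and 0.75, and the smallest p this design allows is 0.0625. No miRNA of the table had an adjusted p under 0.05 in limma, while 32 (5.41%) had an unadjusted p under 0.05.

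Within clone 1, 5 members were lower in Trim-/- on all 3 days, which in these mirrored values is the same as separate groups. Of all miRNAs 24.2% did so. The mean of miR-16-5p was 2687 ± 352 in Trim-/- and 7776 ± 352 in Trimfl/fl (SD, n = 3 each). Its mean log2 difference was -1.54 ± 0.31 (SE of limma), with a 95% interval from -2.41 to -0.67, where the SD of its 3 differences was 0.25. miR-15a-5p followed with a mean of -1.42 ± 0.38 and miR-195a-5p with -1.27 ± 0.35. These 3 of the 7 members were lower past the thresholds of the study, against 7.60% of all miRNAs, and none had an adjusted p under 0.447 (limma, Benjamini-Hochberg), where 1 miRNA of the table (0.169%) had one under 0.05. miR-15b-5p (-0.92 ± 0.37), miR-497-5p (-0.98 ± 0.46), miR-322-5p (-1.63 ± 0.77) and miR-503-5p (-1.31 ± 0.72) did not pass. Which members passed turned on single days. Without day 1, miR-322-5p and miR-503-5p passed in place of the other 3 (2.70% of all miRNAs were lower past the thresholds in that fit), without day 5 miR-16-5p alone passed (4.73%), and without day 6 miR-15a-5p, miR-16-5p and miR-497-5p passed (5.24%).

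Within clone E3 the means of all 7 members were above 0 (50.8% of all miRNAs), from 0.26 ± 0.65 for miR-503-5p to 1.12 ± 0.73 for miR-15a-5p (SE of limma, 2 pairs), and miR-16-5p stood at 0.77 ± 0.68. None passed the thresholds (1.35% of all miRNAs were higher past them), and in limma the adjusted p was 0.990 for each. A mean over these 2 pairs hides their unlike values, since nearly all of it came from day 4. The SD of the 2 differences was 0.59 for miR-503-5p, 1.04 for miR-16-5p and 1.57 for miR-15a-5p. miR-15a-5p, miR-15b-5p, miR-16-5p and miR-322-5p were higher on both days (23.6% of all miRNAs were), but on day 3 by 0.01, 0.01, 0.03 and 0.16 only.

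The second comparison set the genotype difference of clone E3 against that of clone 1. For miR-16-5p the difference was 2.31 ± 0.67 higher in clone E3 on the log2 scale (SE), with a 95% interval from 0.62 to 3.99, an unadjusted p of 0.0164 and an adjusted p of 0.627 (limma, Benjamini-Hochberg). Its p ranked 6 among all miRNAs. miR-15a-5p (2.54 ± 0.86, unadjusted p of 0.0302) and miR-195a-5p (1.93 ± 0.70, unadjusted p of 0.0383) were also under 0.05 in limma, with the same adjusted p of 0.627. These are 3 of the 7 members, against 5.57% of all miRNAs in either direction and 4.22% in this one. The differences of the other 4 were 2.14 ± 1.09 for miR-322-5p, 1.73 ± 0.74 for miR-15b-5p, 1.59 ± 0.78 for miR-497-5p and 1.57 ± 1.04 for miR-503-5p. All 7 were above 0, as were 50.5% of all miRNAs. Permuting the clone labels over the 5 differences gave an exact p of 0.1, the smallest possible, for miR-15a-5p, miR-15b-5p, miR-16-5p and miR-195a-5p, 0.2 for miR-497-5p and 0.3 for miR-322-5p and miR-503-5p. Leaving out single days changed these calls but not the direction, which stayed above 0 for all 7 members without any one of the 5 days. Without day 4 the difference was 1.57 for miR-16-5p (unadjusted p of 0.0662 in limma) and 0.93 to 1.79 over the members, and no member was under 0.05 (1.86% of all miRNAs were). Without day 1, miR-16-5p had 2.18 at an unadjusted p of 0.0531 in limma, and miR-322-5p and miR-503-5p alone among the members were under 0.05 (4.22%). Without day 5 miR-16-5p alone was (4.73%), without day 6 miR-15a-5p, miR-16-5p and miR-497-5p were (5.24%), and without day 3 miR-15a-5p, miR-15b-5p, miR-16-5p and miR-195a-5p were (12.5%). For miR-15a-5p, miR-15b-5p and miR-16-5p every clone 1 pair was lower and every clone E3 pair higher in Trim-/-, and 8.11% of all miRNAs had opposite signs of either kind between the clones in every pair. After scaling by library sums, 6 of the 7 members were lower on day 3, these 3 among them, so that this sign pattern was lost. Without that scaling, either opposite signs in every pair or a clone difference under an unadjusted 0.05 was met by 4 of the 7 members and by 11.1% of all miRNAs. In the table as a whole, 1 miRNA (0.169%), miR-136-5p, which is no member, had an adjusted p under 0.05 for the clone difference (0.0293, limma).

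**Figure D3:**
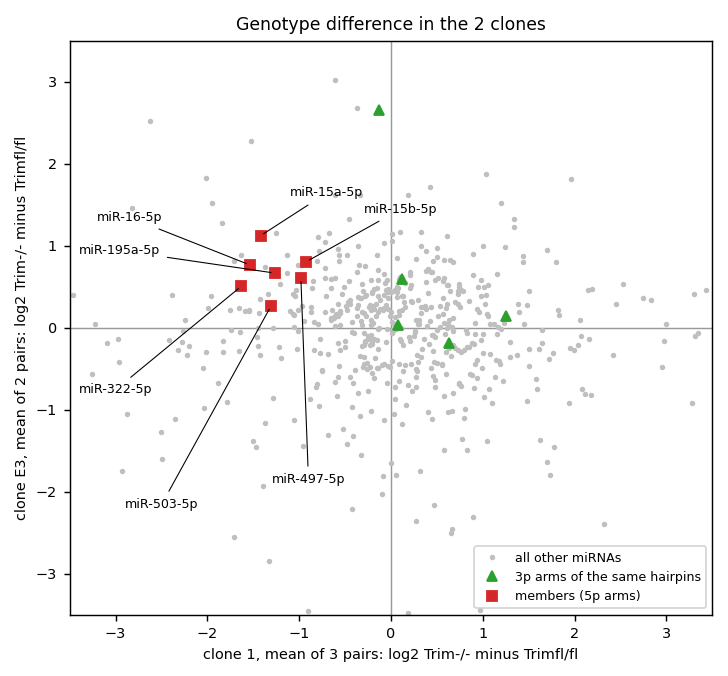
Mean log2 difference, Trim-/- minus Trimfl/fl, in clone 1 (3 pairs, horizontal) and clone E3 (2 pairs, vertical) for each miRNA; 32 miRNAs lie outside the axes. The 7 members (squares) sit together at -1.63 to -0.92 in clone 1 and 0.26 to 1.12 in clone E3, and the 5 3p arms (triangles) lie apart from them.

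Day 4 stood apart over the whole table too. The sign of the same-day difference was opposite on days 4 and 5 for 60.3% of the 592 miRNAs and on days 4 and 6 for 58.8%, and for 7 of 7 members in both cases. Day 4 against day 1 gave 50.7% and 5 of 7 members, and day 4 against day 3, of the same clone, 52.2% and 3 of 7 members. Among the other days, 34.0% to 40.2% of miRNAs and 0 to 4 members had opposite signs. Since clone E3 is represented by 2 days of which 1 has the reversed sign, clone and day cannot be told apart for the members.

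Markers of other cells also moved from day to day. The summed value of 4 of 5 listed fibroblast miRNAs, nearly all of it miR-143-3p, was 13314 to 35343 in Trim-/- and 13207 to 35236 in Trimfl/fl. Its log2 ratio of Trim-/- to Trimfl/fl was 0.28 and 0.32 on days 1 and 3, -1.40 on day 4, and 1.42 and 0.80 on days 5 and 6, which is opposite in direction to the members' summed value on days 1, 4, 5 and 6. That contrast is one of miR-143-3p, whose mean log2 difference was 0.86 in clone 1 and -0.56 in clone E3. The means of miR-145a-5p (-0.22 and 0.58), miR-199a-3p (-0.17 and 0.29) and miR-199a-5p (-0.22 and 0.04) had the opposite signs, which are those of the members. The 3 neural miRNAs, miR-9-5p, miR-124-3p and miR-128-3p (summed to 5457 to 8908 in Trim-/-, 3140 to 6591 in Trimfl/fl), had log2 ratios of 0.75, 0.67, -0.27, 1.504 and 0.56 on days 1, 3, 4, 5 and 6. Of these, miR-124-3p had the lowest values, 165 to 467 in Trim-/- and 181 to 482 in Trimfl/fl. Its mean log2 difference was -0.35 in clone 1, where the sum was higher in Trim-/- on each day, and 0.76 in clone E3. The 3 blood miRNAs, miR-142-3p, miR-142-5p and miR-451a, summed to 502.99 to 1731 in Trim-/- and 1739 to 3010.0 in Trimfl/fl and had log2 ratios of -2.58 on day 1 and -2.47 on day 5, with 2 values at the floor, and of -0.53, -0.01 and -0.49 on days 3, 4 and 6. The mES cell miRNAs themselves had log2 ratios of 0.28, 0.18, -0.19, 0.91 and 0.21. As shares of each library's sum, the log2 ratios on days 1, 3, 4, 5 and 6 were 0.08, 0.19, -1.20, 0.40 and 0.59 for the fibroblast miRNAs and 0.55, 0.55, -0.06, 0.49 and 0.35 for the neural ones. For the blood miRNAs they were -2.79, -0.65, 0.20, -3.49 and -0.69, and the mES cell miRNAs lay between -0.11 and 0.07. The part of these markers in the members' differences was not tested.

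The other arm of each hairpin was examined next. When a hairpin is cut, its 5p and 3p arms are made in equal number, and usually 1 of them is kept in Argonaute. The table holds 5 3p arms of the members' hairpins, whose seeds differ from that of miR-16-5p. None passed the thresholds over the 5 pairs. In clone 1 alone miR-195a-3p was higher past them (1.26 ± 0.43, SE), as were 2.36% of all miRNAs, and in clone E3 alone miR-16-2-3p was (2.65 ± 1.02, against 1.35%), with adjusted p-values of 0.447 and 0.695 in limma. The means of all 5 were above 0 (51.2% of all miRNAs), with a median log2 difference of 0.31 where the members had -0.49. miR-195a-3p had the smallest p, at a mean of 0.81 ± 0.38 (SE) and an adjusted p of 0.607 (limma, Benjamini-Hochberg), and miR-15b-3p came next at 0.31 ± 0.29 and an adjusted p of 0.679 in limma.

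miR-195a-3p had 589.6, 774 and 625.3 in Trim-/- and 361, 177 and 326 in Trimfl/fl on days 1, 5 and 6, and 567 against 383 and 429.6 against 521 on days 3 and 4. It was thus higher in Trim-/- on each clone 1 day, on which its 5p arm was lower, and lower on day 4. miR-16-1-3p, made in the chromosome 14 locus only, was also higher in Trim-/- on the 3 clone 1 days, by 0.26, 1.41 and 0.23 on the log2 scale. These were 2 of the 5 3p arms, and 23.3% of all miRNAs were higher on all 3 days. miR-322-3p stayed between -0.44 and 0.47 on every day, while miR-322-5p reached -2.97 on day 5. miR-16-2-3p differed by 5.24 on day 4, on which the Trimfl/fl library had a value of only 2.09, and it was lower in Trim-/- on days 5 and 6 (-1.11 and -0.33), as miR-16-5p was. The ratio of miR-195a-5p to miR-195a-3p ranged from 0.517 to 5.29 over the 10 libraries, and that of miR-322-5p to miR-322-3p from 0.112 to 1.02, so that either arm could be the more abundant. These arms were set side by side as a description, with no test of the difference between arms.

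Among the 7 cluster neighbours, hairpins beside miR-322 and miR-503 on chromosome X and the antisense miR-497b on chromosome 11, none passed the thresholds over the 5 pairs. In clone 1 alone miR-351-5p was higher past them (1.19 ± 0.34, SE, adjusted p of 0.447 in limma), as were 2.36% of all miRNAs. The means of 6 were above 0 (51.2% of all miRNAs), and the median of the 7 was 0.45. miR-450a-5p, with the smallest p, was higher in Trim-/- on each of the 5 days (5.24% of all miRNAs), by 0.04 to 1.03 on the log2 scale, with a mean of 0.56 ± 0.26 (SE) and an adjusted p of 0.607 (limma, Benjamini-Hochberg). miR-497b, whose row names no arm and which was therefore not taken as a member, had a mean of 0.76 ± 0.52 and an adjusted p of 0.645 in limma. On days 5 and 6, on which miR-322-5p and miR-503-5p were lower in Trim-/-, the 6 neighbours on chromosome X had no common direction. miR-351-5p was higher by 0.71 and 1.48 and miR-450a-5p by 0.85 and 0.04, miR-450b-3p was lower at -0.56 and -0.17, and the other 3 had opposite signs on these days. The difference of miR-351-5p between clones, E3 minus clone 1, was -1.64 ± 0.56 (adjusted p of 0.627, limma), opposite in sign to that of all 7 members.

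The miRNAs most like miR-16-5p were ranked by the root mean square difference between their 5 same-day log2 differences and those of miR-16-5p, over the other 591 miRNAs. miR-195a-5p was the nearest at 0.26. It was followed by miR-106b-5p at 0.30, miR-15a-5p at 0.40, miR-17-3p at 0.51 and miR-379-3p at 0.55. miR-195a-5p and miR-15a-5p are members, and miR-15b-5p was next at rank 6 and miR-497-5p at rank 10. miR-503-5p and miR-322-5p came at ranks 121 and 127, and the 3p arms between ranks 172 and 453. miR-106b-5p, of the miR-17 family, had differences of -1.49, -0.09, 1.15, -1.15 and -1.004 on days 1, 3, 4, 5 and 6, so that the day-by-day pattern of miR-16-5p was not confined to its seed family.

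Among themselves the members fell into 2 sets. The 10 pairs of miR-15a-5p, miR-15b-5p, miR-16-5p, miR-195a-5p and miR-497-5p, which lie on 3 chromosomes, had root mean square differences of 0.26 to 0.59. miR-322-5p and miR-503-5p, neighbours on chromosome X with 11 differing positions, were 0.47 apart. The 10 pairs across the 2 sets were 1.21 to 1.53 apart. Likeness in sequence did not order the pairs in the same way. miR-15b-5p and miR-322-5p differ at 6 positions and lay across the sets, whereas miR-16-5p and miR-497-5p differ at 11 positions and lay 0.59 apart. The pair with the fewest differing positions, miR-16-5p and miR-195a-5p, was also the closest in its day-by-day values. These points share libraries and are a description over 5 days.

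**Figure D4:**
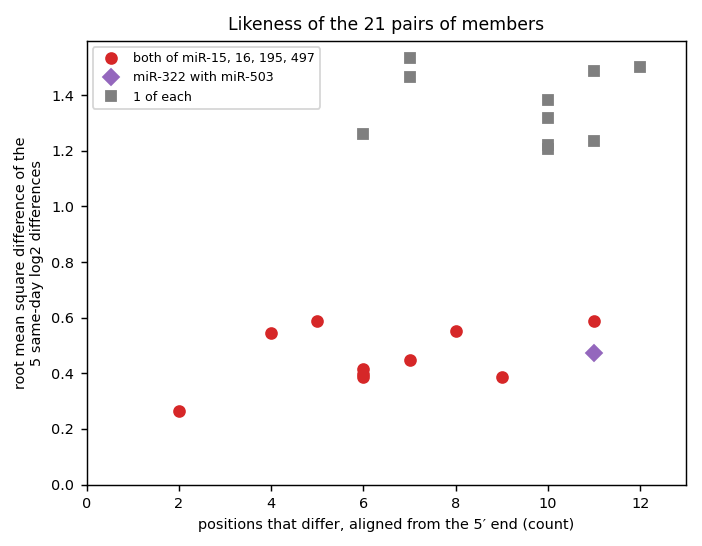
Each point is 1 of the 21 pairs of members: positions at which the mature sequences differ (horizontal, count) against the root mean square difference of their 5 same-day log2 differences (vertical). Pairs within miR-15, miR-16, miR-195 and miR-497 (circles) and the pair miR-322 with miR-503 (diamond) lie at 0.26 to 0.59, and mixed pairs (squares) at 1.21 to 1.53.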

How the data were processed

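Values of 592 miRNAs in 11 small RNA libraries were taken from the deposited table. According to the study's methods, libraries were made with the NEBNext small RNA kit, reads were processed with CASAVA 1.8 and FLICKR, aligned with Bowtie2 2.2.1 to miRBase entries on mm10 and counted in Partek 6.6. After DESeq2 normalisation and a batch correction, the authors raised values under 1 to 1 and removed miRNAs with group means under 10. The deposited signal is therefore no raw count, and limma took the place of a count model.

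The 5 same-day pairs, joined by the day and clone in the labels, were compared with limma 3.58.1 (R 4.3.3; lmFit and eBayes) on log2(value + 1), a pseudocount that understates changes of low values, with genotype and day as factors, or with a genotype-by-clone term. P-values were two-sided and adjusted by Benjamini-Hochberg over 592 miRNAs. The fit was also run on simulated data with independent normal noise in each library. Those data lack the mirrored pairs and the floor, so that they cannot show how the fit behaves on the deposited values. Positions and host genes came from RefSeq (GRCm38.p6) and GENCODE. The named miRNAs are every member, from the lists of 3p arms and of cluster neighbours those past the thresholds or otherwise the 2 with the smallest p, and the 5 nearest to miR-16-5p. Others from these lists (miR-16-1-3p, miR-16-2-3p, miR-322-3p, miR-351-5p, miR-450b-3p), miR-136-5p and the marker miRNAs were named after their values were seen, or as markers. The members and lists were chosen with earlier results of these data known. Alternatives were the fit without the day block, all 11 libraries, each day left out, each clone alone, scaling by library sums, other pseudocounts (0.1 and 10), untransformed values, limma with trend, a mean of at least 100 and no floored value. Leaving out days within clone 1, scaling within each clone, by day and of the summed values, and trend, filter and floor for the clone difference, were chosen after seeing the data.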

Additional observations from a re-analysis of the deposited data

Results flagged for a closer look

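The genotype differences of 4 members were singled out for unlike values in the clones, by criteria that 11.1% of all miRNAs met. For miR-15a-5p, miR-15b-5p and miR-16-5p every clone 1 pair was lower in Trim-/- and every clone E3 pair was higher, with differences between the clones (E3 minus clone 1, log2 scale) of 2.54, 1.73 and 2.31. For miR-195a-5p the difference was 1.93, and it was singled out, like those of miR-15a-5p and miR-16-5p, by an unadjusted p under 0.05 in limma. None of the 4 passed adjustment over all miRNAs (adjusted p of 0.627 for each, limma), and miR-15b-5p did not pass before adjustment (p of 0.0633, limma). On day 3 their differences lay between -0.08 and 0.03. After scaling by library sums, 6 of the 7 members were lower in Trim-/- on that day, including miR-15a-5p, miR-15b-5p and miR-16-5p. Their opposite signs in every pair were then lost. Without day 4 the differences between the clones were 1.43 for miR-15a-5p, 0.93 for miR-15b-5p, 1.57 for miR-16-5p and 1.19 for miR-195a-5p, and none was under an unadjusted p of 0.05.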

How the results depend on the processing

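The depth of the libraries is unknown and precision comes from 5 pairs. All 7 members kept a mean below 0 over the 5 pairs in the settings that used both clones, except miR-15b-5p without day 5, at 0.063. In clone E3 alone all turned positive, at 1.12 for miR-15a-5p, 0.80 for miR-15b-5p, 0.77 for miR-16-5p, 0.67 for miR-195a-5p, 0.51 for miR-322-5p, 0.60 for miR-497-5p and 0.26 for miR-503-5p. No member passed the thresholds in the other settings, but 3 did (miR-15a-5p, miR-16-5p and miR-195a-5p) in clone 1 alone and without day 4. Leaving out each day, the mean of miR-16-5p ran from -1.15 to -0.32 and that of miR-15b-5p from -0.69 to 0.063, and in clone 1 alone miR-16-5p stood at -1.54. Without the replicate block, which the day label provides, the means were the same and no member passed, while 42 miRNAs were higher and 59 lower past the thresholds, against 5 and 27 with the pairing. That fit treats the mirrored libraries of a day as independent, so that its p-values can be too small.

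Over all miRNAs the counts of higher and lower were 45 and 71 with all 11 libraries, a fit also without the block and with the same limit. They were 14 and 45 in clone 1 and 8 and 28 in clone E3. Scaling by library sums shifted the median of all miRNAs from 0.03 to -0.24 and gave 2 and 48, with miR-16-5p at -0.89. Under that scaling the members' directions were kept in clone 1 (-2.10 to -1.40) and clone E3 (0.30 to 1.16), but on day 3 the number of members lower in Trim-/- rose from 3 to 6, where the median of all miRNAs was -0.14. A pseudocount of 10 gave 8 higher, untransformed values 9, miRNAs with no floored value 10, and a mean of at least 100 gave 10 lower. Leaving out each day gave 4 to 23 higher, 11 to 44 lower and 0 to 3 members. For the clone difference, leaving out each day gave 11 to 74 miRNAs and 0 to 4 members with an unadjusted p under 0.05, and 1.57 to 3.04 for miR-16-5p, and a mean of at least 100 gave 20 miRNAs against 33. In clone 1 alone, leaving out each day gave 1 to 3 members past the thresholds and -1.67 to -1.41 for miR-16-5p. The causes were not tested.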
